A study of Mus musculus with 5 samples.

Results

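Conventional dendritic cells were picked out of a single-cell RNA sequencing experiment on the mouse kidney after ischemic injury and were chosen by the transcripts each cell carried. A droplet barcode was taken as a conventional dendritic cell if it held at least 5 UMIs (unique molecular identifiers, each counting 1 captured RNA molecule) of the MHC class II gene H2-Aa and at least 2 UMIs of Cd209a, Xcr1 and Clec9a together. It could hold no more than 2 UMIs of the complement genes C1qa, C1qb and C1qc, which mark macrophages, no Cd79a, which marks B cells, and not both Ccr7 and Fscn1, which mark matured dendritic cells. Of 79202 barcodes with at least 500 UMIs, at least 200 genes and at most 25% of UMIs on mitochondrial genes, 198 met the rule, a share of 0.250% (95% interval 0.216 to 0.287). They were 36 cells with Xcr1 or Clec9a and no Cd209a (Xcr1/Clec9a-bearing cells), 152 cells with Cd209a and neither of the others (Cd209a-bearing cells), and 10 cells with both. Since measured transcripts chose the cells, their levels of these genes are a description and no finding.

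The study compared kidneys of young adult male C57BL/6J mice after sham surgery with kidneys at day 1, 3, 14 and 28 after unilateral ischemia-reperfusion (UIR), in which the left renal pedicle was clamped and released and the right kidney was left in place. The 5 samples were labelled Sham, AKI day 1, AKI day 3, AKI day 14 and AKI day 28, for acute kidney injury, and the labels give 3 mice to each kidney sample. They do not say how those mice were divided over libraries, and the methods count several matrices per group where the deposited file holds 5 libraries in all. The deposited matrix held 5 libraries told apart by a number at the end of each barcode, and no label tied a number to a sample. The libraries were therefore treated as 1 pooled sample, so that no time point was compared, no test between conditions was possible, and every interval below covers counting error only.

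Conventional dendritic cells take up antigen in tissues and present it to T cells, and they arise from bone marrow precursors under the growth factor receptor Flt3. The cDC1 lineage carries the chemokine receptor Xcr1 and the dead-cell receptor Clec9a, depends on the transcription factors Irf8 and Batf3, and is known for presenting antigen from dead cells on MHC class I to CD8 T cells. The cDC2 lineage carries Sirpa and Itgam, in mice often with the lectins Cd209a, Mgl2 and Clec10a, depends on Irf4 and Klf4, and is known for presenting antigen on MHC class II to CD4 T cells. In the kidney both lie in the interstitium beside far more numerous macrophages, which also carry MHC class II.

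The genome sequence before the genes that separated the subsets is shown so that the receptors of the rule (Xcr1, Clec9a and Cd209a) can be read beside 3 genes outside it that were among the largest ratios between the subsets (Ifi205, Mgl2 and S100a4). Each sequence is the RefSeq promoter table's upstream stretch in build GRCm38.p6, cut where an annotated gene began, read 5′ to 3′ on the strand of the gene. The stretches are chr9:123862030-123862279 (minus strand) for Xcr1, chr6:129408612-129408861 (plus) for Clec9a, chr1:174031811-174032005 (minus) for Ifi205, chr8:3748985-3749234 (minus) for Cd209a, chr11:70130107-70130328 (plus) for Mgl2 and chr3:90603520-90603769 (plus) for S100a4. Capitals mark the single match in these 6 stretches to any of 3 motifs searched on both strands.
Xcr1: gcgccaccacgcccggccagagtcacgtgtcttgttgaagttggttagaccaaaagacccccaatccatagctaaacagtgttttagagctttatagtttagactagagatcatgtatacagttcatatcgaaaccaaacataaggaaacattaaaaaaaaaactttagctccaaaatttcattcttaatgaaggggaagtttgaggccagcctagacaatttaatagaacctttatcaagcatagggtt
Clec9a: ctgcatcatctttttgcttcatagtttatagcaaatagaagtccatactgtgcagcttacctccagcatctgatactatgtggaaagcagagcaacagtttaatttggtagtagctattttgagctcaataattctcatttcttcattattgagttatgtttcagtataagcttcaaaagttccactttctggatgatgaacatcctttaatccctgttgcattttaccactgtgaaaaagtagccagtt
Ifi205: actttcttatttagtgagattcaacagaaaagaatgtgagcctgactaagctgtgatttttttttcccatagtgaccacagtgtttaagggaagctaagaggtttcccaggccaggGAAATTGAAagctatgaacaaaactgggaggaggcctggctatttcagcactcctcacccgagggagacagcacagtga
Cd209a: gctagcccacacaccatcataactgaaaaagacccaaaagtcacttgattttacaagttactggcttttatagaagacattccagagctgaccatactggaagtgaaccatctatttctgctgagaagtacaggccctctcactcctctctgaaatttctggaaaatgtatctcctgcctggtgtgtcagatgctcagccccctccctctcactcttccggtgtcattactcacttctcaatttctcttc
Mgl2: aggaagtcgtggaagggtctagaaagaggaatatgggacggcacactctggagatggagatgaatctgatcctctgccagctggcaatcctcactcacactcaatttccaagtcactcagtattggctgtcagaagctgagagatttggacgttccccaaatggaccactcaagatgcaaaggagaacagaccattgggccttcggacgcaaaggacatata
S100a4: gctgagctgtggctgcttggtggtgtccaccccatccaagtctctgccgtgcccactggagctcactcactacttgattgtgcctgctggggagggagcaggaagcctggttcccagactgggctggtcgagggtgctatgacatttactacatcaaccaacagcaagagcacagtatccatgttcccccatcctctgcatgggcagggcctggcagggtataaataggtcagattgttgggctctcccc

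The motifs were TGANTCA for AP-1, GAGGAAG for PU.1 and GAAANNGAA for the interferon-response element that Irf8 and its relatives can bind. The printed Ifi205 stretch ends where the annotated gene began, which lies upstream of the RefSeq promoter table's own start. Counted from that start and not from the last printed base, the match, an interferon-response letter string, lay 134 to 126 bases upstream. That string was present upstream of 8.18% of 27025 genes in the table, of 8.74% of the 2070 genes with an entry among those compared below, of 13.5% of 89 genes higher in Xcr1/Clec9a-bearing cells and of 11% of 245 genes higher in Cd209a-bearing cells. The PU.1 string was upstream of 12%, 13.8%, 19.1% and 18.4% of the same sets, and the AP-1 string of 7.82%, 6.09%, 6.74% and 7.76%. These shares describe letters in a window, and no binding was measured.

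The cells were placed by genes outside the rule before they were compared. Flt3, the growth factor receptor of the lineage, was at 113 CPM (UMIs of the gene per 1000000 UMIs of the cells together, 95% interval 75.9 to 163) in Xcr1/Clec9a-bearing cells, 51.6 (37.5 to 69.3) in Cd209a-bearing cells, 86.0 (55.1 to 128) in 48 mature dendritic cells and 0.458 (0.0555 to 1.65) in 722 macrophages rich in C1q. A UMI of Flt3 was seen in 18 of 36, 33 of 152, 18 of 48 and 2 of 722 cells. Proximal tubule barcodes, which should lack it, held it in 0.0112% of 35620 at a median depth of 5737 UMIs, against median depths of 6333 and 4771.5 UMIs in the subsets. These tubule barcodes were taken without H2-Aa. Those mixed with class II cells were thus left out, so their shares of dendritic cell and macrophage genes may be low. Zbtb46, a transcription factor of conventional dendritic cells, was sparse at 5 and 13 UMIs in the subsets, which is 19.5 and 15.3 CPM against 0.916 in macrophages. The macrophage genes Adgre1 and Ms4a7 had 6 and 2 UMIs over both subsets, against 177 and 580 CPM in the C1q-rich macrophages. The receptor Csf1r was still seen in 52 of 152 Cd209a-bearing cells, 1 of 36 Xcr1/Clec9a-bearing cells and 565 of 722 macrophages. A UMI of a 10-gene macrophage list was seen in 132 of 152 Cd209a-bearing and 34 of 36 Xcr1/Clec9a-bearing cells. That list summed to 720 and 649 CPM in them against 15830 in macrophages. By Flt3, Zbtb46, Adgre1 and Ms4a7 the cells matched their name. The labels' cell type entry of goblet cell had no counterpart in the data. Its genes Muc2, Clca1, Fcgbp, Zg16 and Spdef had 0 UMIs in the members and between 0 and 44 over all 79202 barcodes.

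A few members stood apart and are named before the results. Besides the rule's genes, 3 cells carried genes of plasmacytoid dendritic cells, the type I interferon producers, at 31 to 44 UMIs of a 7-gene list, where the other 195 members held at most 9. They were picked out after their values were seen. The first was an Xcr1/Clec9a-bearing cell of library 1 with 19469 UMIs, 7.61% of all UMIs of its subset, of which 22.6% were mitochondrial. It had 17 UMIs of Ly6d and 4 of Siglech, and only 6 of Cst3, where the lowest of the other 35 cells of its subset had 64. The other 2 were a Cd209a-bearing cell of library 1 with 13 UMIs of Siglech and a cell of library 4 bearing both, with 6. Ly6d was absent from the other 195 members and Siglech had 1 UMI. Between the subsets, the counts of compared genes, the reported gene lists and the tubule values that change without these cells are given both ways below. Comparisons with other populations and within the Cd209a-bearing cells were not repeated without them. Among the passing barcodes 642 barcode sequences occurred in more than 1 library, and 2 members shared theirs with a passing barcode elsewhere but none with another member.

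Members were unevenly spread over the libraries. Libraries 1 to 5 held 72, 67, 34, 21 and 4 of them. Relative to the barcodes that passed the same filters this was 7.19 (5.63 to 9.04), 5.92 (4.59 to 7.52), 1.00 (0.696 to 1.40), 1.86 (1.15 to 2.84) and 0.314 (0.0855 to 0.803) per 1000. Libraries 1 and 2 thus held 70.2% of the members and 26.9% of the passing barcodes. Library 3 held the most passing barcodes, 33839 against 10020 to 12745 in the others, at a median of 1242 UMIs against 3190 to 4294, so its denominator held more shallow barcodes. Against barcodes above a knee in depth the figures were 10.8, 9.76, 1.59, 2.86 and 0.431 per 1000, in the same order. Library and surgical group cannot be told apart here, since no label joins them.

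**Figure D1:**
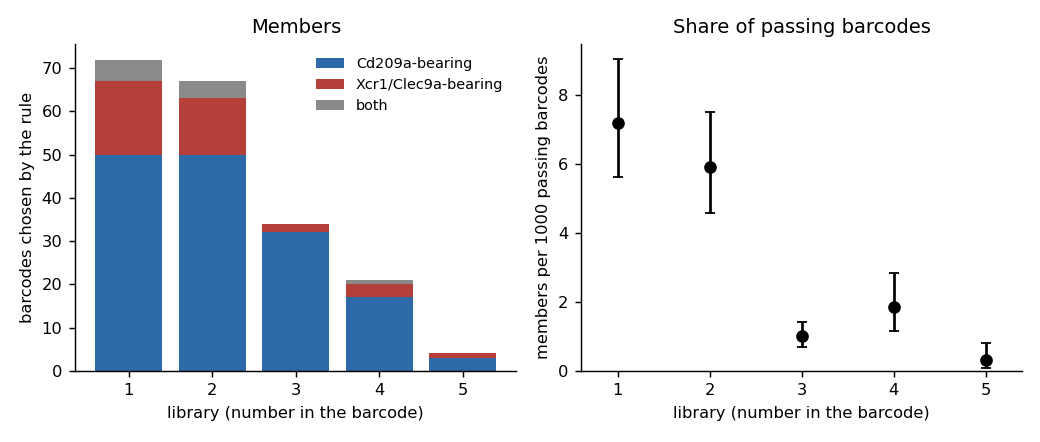
Left, stacked bars of the number of conventional dendritic cells in each of the 5 libraries, split into Cd209a-bearing (blue), Xcr1/Clec9a-bearing (red) and both (grey). Right, members per 1000 passing barcodes with 95% Clopper-Pearson intervals. Libraries 1 and 2 hold 72 and 67 members and library 5 holds 4.

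The Xcr1/Clec9a-bearing share of the subset members was 19.1% (13.8 to 25.5). In libraries 1 to 5 the 2 subsets numbered 17 and 50, 13 and 50, 2 and 32, 3 and 17, and 1 and 3 cells, or shares of 25.4% (15.5 to 37.5), 20.6% (11.5 to 32.7), 5.88% (0.720 to 19.7), 15% (3.21 to 37.9) and 25% (0.631 to 80.6). The share was lowest in library 3. These intervals overlapped throughout, which does not decide whether the shares differed, and no direct comparison was made.

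Within the rule's own genes, 29 of the 36 Xcr1/Clec9a-bearing cells held Xcr1 and 30 held Clec9a, with both in 23. H2-Aa had a median of 59.5 UMIs (5 to 158) in these cells and 50 (5 to 178) in Cd209a-bearing cells, whose Cd209a had a median of 5 UMIs (2 to 38). All 10 cells with both kinds of receptor held exactly 1 Clec9a UMI and no Xcr1. S100a4, which was higher in Cd209a-bearing than in Xcr1/Clec9a-bearing cells, was present in 9 of these 10 at 3 to 38 UMIs with no Irf8. The tenth was the library 4 cell with plasmacytoid genes. At the receptor threshold, 44 barcodes just inside with a sum of 2 had Flt3 at 51.0 CPM, and 61 just outside with a sum of 1 had it at 51.4. In all, 473 barcodes failed the receptor threshold alone, so the number of members depends on it. Of barcodes with 5 UMIs of H2-Aa 4 were inside, 4 with 4 UMIs were outside, and 15 failed this alone. The limits on C1q, Cd79a and on Ccr7 with Fscn1 alone removed 9, 3 and 2 barcodes.

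Between the subsets, cDC1 genes were higher in Xcr1/Clec9a-bearing cells and cDC2 genes in Cd209a-bearing cells. Neighbouring populations shared many of them. The cDC2 list summed to 6206 CPM in Cd209a-bearing cells, 5050 in mature dendritic cells and 3952 in C1q-rich macrophages. The cDC1 list summed to 5287 in Xcr1/Clec9a-bearing cells, 2197 in mature dendritic cells and 1250.5 in macrophages. S100a4 was seen in 85.4% of mature dendritic cells and Mgl2 in 39.8% of macrophages. Irf8, the transcription factor that cDC1 depend on, was at 899 CPM (786 to 1020) in Xcr1/Clec9a-bearing cells and 24.6 (15.3 to 37.7) in Cd209a-bearing cells, a log2 ratio of 5.19 (4.54 to 5.91). S100a4, a calcium-binding protein, was at 3.91 (0.0989 to 21.8) and 2087 (1991 to 2186), a log2 ratio of -9.06 (-14.4 to -6.58). Mgl2, a galactose-binding lectin, had 0 UMIs in the first subset, at a floor of 11.7 CPM, and 896 (834 to 962) CPM in the second. Both subsets expressed MHC class II at like levels. Since the cells were sorted by receptors that the lineages carry, these ratios describe the subsets and are no test of them.

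Over all genes, 2595 had at least 50 UMIs in the subsets together and were compared. Of these, 111 genes or 4.28% were at least 2-fold higher in Xcr1/Clec9a-bearing cells and 318 or 12.3% at least 2-fold lower, around a median log2 ratio of -0.11. The Cd209a-bearing cells held 852355 UMIs against 255911, so genes found mainly in them reached the minimum at a lower level. The counts higher and lower therefore do not measure which subset differs more. Each share is a background for its own direction only. The interval excluded equality for 111 of the 111 and 305 of the 318. For the 111 the minimum of 50 UMIs and the 2-fold limit fixed this in advance, so it adds nothing to the calls. No library held at least 20 cells of each subset. In library 1 (17 and 50 cells) and library 2 (13 and 50 cells), looked at after the pooled values were seen, 104 of the 111 and 298 of the 318 kept their direction in both. Most of the cells behind the pooled calls came from these libraries, so this was no independent check. Without the 3 cells with plasmacytoid genes, 124 genes were higher and 432 lower of 2526 compared.

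Of 18 listed cDC1 genes, 9 were deep enough to compare. All but Id2 were at least 2-fold higher in Xcr1/Clec9a-bearing cells and none was lower, beside 4.28% and 12.3% of all compared genes. The median log2 ratio was 2.55 against -0.11 for all genes. Ifi205, an interferon-inducible protein, was at 391 CPM (318 to 475) in 29 of 36 cells against 2.35 (0.284 to 8.48) in 2 of 152. Ppt1, a lysosomal thioesterase, was at 907 (794 to 1033) against 39.9 (27.6 to 55.7), in 36 of 36 and 28 of 152 cells. These genes separated the subsets by log2 ratios of 7.38 and 4.51. The endosomal GTPase Rab7b was at 340 (272 to 419) and 14.1 (7.27 to 24.6) CPM, and Wdfy4, needed for cross-presentation of cell-bound antigen, at 406 (332 to 492) and 82.1 (64.0 to 104). Naaa, a lysosomal amidase, was at 727 and 161, Cd24a, a surface glycoprotein, at 336 and 57.5, and Batf3, the partner of Irf8 in this lineage, at 164 and 55.1 CPM. Id2, which all conventional dendritic cells use, was at 477 and 303, a log2 ratio of 0.66.

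The shallower cDC1 genes pointed the same way. Tlr3, the endosomal receptor for double-stranded RNA, had 27 UMIs in 16 of 36 cells and 0 in the Cd209a-bearing cells, a log2 ratio of at least 4.91. The adhesion molecule Cadm1 was at 102 (66.4 to 149) against 11.7 (5.63 to 21.6) CPM, and the integrin Itgae at 105 (69.5 to 154) against 8.21 (3.30 to 16.9). Summed over the list, the level was 5287 CPM in Xcr1/Clec9a-bearing cells and 798 in Cd209a-bearing cells, and all 18 genes were higher in the former, some on very few UMIs (Cd8a had 2 and 4).

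Cell by cell the separation held as well as depth allowed. Irf8 was seen in 36 of 36 Xcr1/Clec9a-bearing cells, in each of the 5 libraries, and in 13 of 152 Cd209a-bearing cells. Those are 100% and 8.55%, against 6.89% of tubule barcodes. With every cell thinned to 1000 UMIs the shares were 66.7% (49.0 to 81.4), 4.00% (1.48 to 8.50) and 0.900% (0.412 to 1.70) in that order. Irf8 was also seen in 30 of 48 mature dendritic cells and 364 of 722 C1q-rich macrophages, or 31.9% and 20.3% after thinning. Of 6 cDC1 genes outside the rule (Irf8, Naaa, Wdfy4, Ppt1, Ifi205 and Rab7b), Xcr1/Clec9a-bearing cells held a median of 6 (2 to 6), with at least 4 in 32 of 36. Cd209a-bearing cells held a median of 1 (0 to 4), with at least 4 in 2 of 152. These 6 genes were already higher in the pooled ratios of the same cells, and Cd24a, Batf3 and Id2 were left out. The counts therefore describe the cells and are no independent check.

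Of 18 listed cDC2 genes, 11 were compared. In Xcr1/Clec9a-bearing cells 9 were at least 2-fold lower and none was 2-fold higher, with a median log2 ratio of -2.95. Of all compared genes 12.3% were lower and 4.28% higher. Mgl2 was seen in 79 of 152 Cd209a-bearing cells and in 0 of 36 others, a log2 ratio of at most -6.26. Clec10a, the related lectin, was at 425 (382 to 471) CPM against 11.7 (2.42 to 34.3), where all 3 UMIs lay in 1 cell. S100a4 was seen in 146 of 152 cells against 1 of 36, and in 1.64% of tubule barcodes. Sirpa, which binds the "do not eat me" signal CD47, and Itgam, the CD11b integrin, were at 90.3 and 140 CPM in Cd209a-bearing cells with 0 UMIs in the others, log2 ratios of at most -2.95 and -3.57. Macrophages shared both, with Sirpa in 46.1% of them and 36.2% of Cd209a-bearing cells, and Itgam in 35.3% and 44.1%. The growth factor receptor Csf1r was at 86.8 against 3.91 CPM.

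The remaining cDC2 genes differed less. Ccr2, the receptor that brings cells in from blood, was at 311 (275 to 351) and 184 (135 to 244) CPM in Cd209a-bearing and Xcr1/Clec9a-bearing cells. Klf4 was at 172 and 254, and its log2 ratio was -0.44 in library 1 and 1.63 in library 2. Irf4, the factor that cDC2 depend on, had 22 UMIs in Cd209a-bearing cells and 0 in the others. Tmem176a and Tmem176b, a pair of membrane proteins, were at 840 and 931 CPM in Cd209a-bearing cells against 270 and 234 in the others. Without the Xcr1/Clec9a-bearing cell with plasmacytoid genes the latter 2 values were 152 and 127, since close to 50% of their UMIs came from it.

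**Figure D2:**
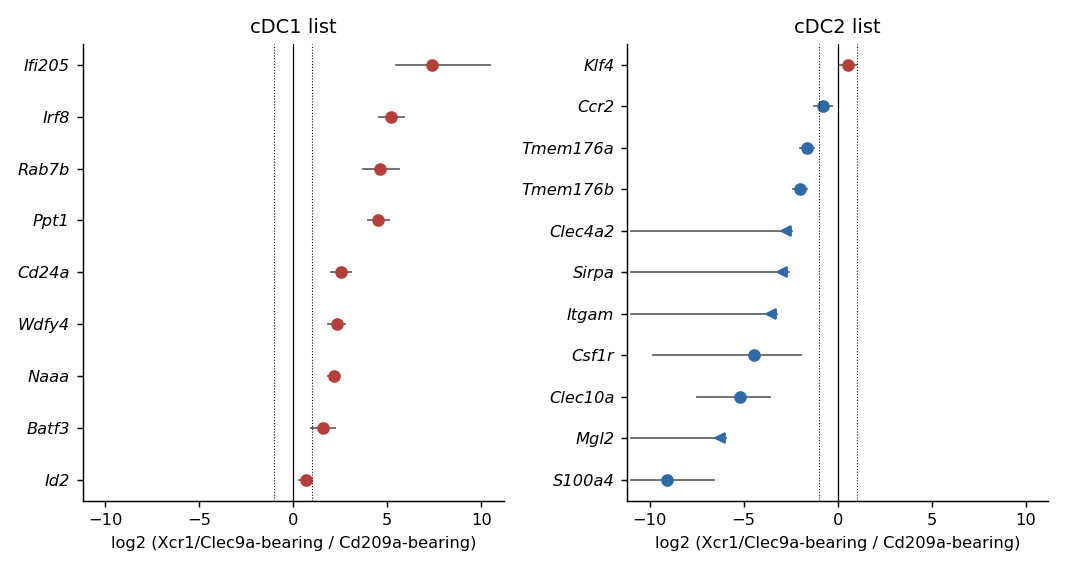
Log2 ratio of CPM in Xcr1/Clec9a-bearing to Cd209a-bearing cells for the compared genes of the cDC1 list (left) and cDC2 list (right), red above 0 and blue below, with 95% intervals drawn no further than the panel edge. Dotted lines mark 2-fold, and triangles mark bounds where 1 subset had 0 UMIs. All 9 cDC1 genes lie above 0 and 10 of the 11 cDC2 genes lie below it.

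Among the compared genes, the largest ratios beyond these lists were mostly on the Cd209a-bearing side. The Cd209a-bearing cells held more UMIs, so genes found mainly in them reached the minimum at a lower level. The side on which the largest ratios lay therefore does not show which subset differs more. Ccl9, a chemokine for myeloid cells, was at 385 CPM (344 to 429) in Cd209a-bearing cells and 3.91 (0.0989 to 21.8) in Xcr1/Clec9a-bearing cells. Cybb, the catalytic subunit of the phagocyte NADPH oxidase, was at 282 against 3.91, and its single UMI lay in the cell with plasmacytoid genes. Each of Clec4b1, a C-type lectin, Pltp, a lipid transfer protein, Ms4a4c, Zeb2, a transcription factor, and Capg, an actin-capping protein, was between 183 and 233 CPM in Cd209a-bearing cells and at 3.91 in the others. Ifitm1 was at 299 against 7.82 and Mcemp1 at 223 against 7.82. All of these had 1 or 2 UMIs in the Xcr1/Clec9a-bearing cells, so the ratios are wide on that side.

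Toward Xcr1/Clec9a-bearing cells, Cxcl9, the interferon-induced attractant of T cells, was at 258 (199 to 328) against 11.7 (5.63 to 21.6) CPM, in 8 of 36 and 7 of 152 cells. Aif1, an actin-binding protein, was at 481 against 90.3 and the proton-sensing receptor Gpr65 at 227 against 30.5. The prothrombinase Fgl2 was at 277 against 46.9, Rtl8a at 191 against 22.3 and Tnni2 at 164 against 22.3. AW112010 was at 164 against 24.6, with 50% of its UMIs in 1 cell. Cst3, the protease inhibitor cystatin C, was the most abundant of the genes that separated the subsets, at 27498 CPM against 5656, with 12793 in mature dendritic cells and 3287 in macrophages.

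Class II genes were mostly at like levels in the subsets, while part of the class I pathway was higher in Xcr1/Clec9a-bearing cells. Of 12 class II genes compared, 1 was at least 2-fold higher in these cells and 3 were lower, against 4.28% and 12.3% of all compared genes, and counts this small stand near that background. H2-Ab1 was at 9007 (8643 to 9382) and 9808 (9599 to 10021) CPM in Xcr1/Clec9a-bearing and Cd209a-bearing cells. Cd74, the invariant chain, was at 21332 and 25732. H2-Ob, part of the DO complex that restrains peptide loading, was higher at 168 (122 to 226) against 76.3 (58.9 to 97.2). H2-DMb2, part of the DM complex that loads peptide, was lower at 86.0 (53.9 to 130) against 287 (253 to 326). The proteases Ctss at 367 against 1198 and Lgmn at 62.5 against 162 were lower too. These 4 kept their direction in libraries 1 and 2.

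Of 9 class I genes compared, 4 were at least 2-fold higher in Xcr1/Clec9a-bearing cells and none was lower. They were the immunoproteasome subunits Psmb9 at 477 (396 to 569) against 120 (97.6 to 145) CPM and Psmb8 at 1176 against 549, and the peptide transporters Tap1 at 184 against 82.1 and Tap2 at 109 against 28.2. A share of 4 in 9 stands beside 4.28% of all compared genes. The presenting molecules themselves did not reach 2-fold, with H2-K1 at 1137 against 943 and B2m at 1231 against 1017. Of 4 co-stimulatory genes compared, only Tnfsf9, the ligand of 4-1BB, passed 2-fold, at 23.4 against 255 CPM. Cd86 was at 164 (118 to 222) against 85.6 (67.1 to 108) and Cd83 at 707 against 601. Without the cells with plasmacytoid genes Cd86 was at 178 against 86.1, just past 2-fold.

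Il1b, the gene of the cytokine interleukin-1 beta, and most of the chemokines compared were lower in Xcr1/Clec9a-bearing cells. Of 12 listed cytokines only 2 were deep enough to compare, and 1 of them, Il1b, was at least 2-fold lower. Il1b was at 3680 CPM (3553 to 3811) in Cd209a-bearing cells and 813 (706 to 931) in Xcr1/Clec9a-bearing cells, with 3050 in the macrophages. Thinned to 1000 UMIs, it was seen in 71.3%, 41.7% and 67.3% of cells in that order and in 1.20% of tubule barcodes. Tnf, by contrast, was at 27 (17.1 to 40.5) in Cd209a-bearing and 7.82 (0.946 to 28.2) in Xcr1/Clec9a-bearing cells against 187 in macrophages. The intervals of the subsets overlapped, which alone does not decide the matter, and no difference in Tnf between them is claimed at this depth. Il1a, Il12a and Il27 had 0 UMIs in both subsets. Of 9 chemokines compared, 6 were at least 2-fold lower in Xcr1/Clec9a-bearing cells and 1, Cxcl9, was higher, against 12.3% and 4.28% of all compared genes. Without the cells with plasmacytoid genes 5 were lower, since Ccl17 was then at 309 against 605 CPM. Ccl6 was at 11.7 against 328 CPM and Ccl4 at 141 against 482.

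Some of these transcripts sat in very few cells. Il12b, which encodes the shared subunit of interleukin-12 and interleukin-23, had 43 UMIs in Xcr1/Clec9a-bearing cells, 42 of them in a library 1 cell that also held 30 UMIs of the homing receptor Ccr7 and 14 of Ccl5. A library 2 cell of the same subset held 41 UMIs of Ccr7, 49 of Ccl17 and 16 of Ccl22. Those cells held all 71 Ccr7 UMIs of the subset, and neither held Fscn1, so the rule kept them. In Cd209a-bearing cells 28 held Ccr7, with at most 18 UMIs in 1 cell. Ccr7 was seen in 32 members in all, 12 in library 1, 20 in library 2 and 0 in the others. Ccl17, an attractant of Ccr4-bearing T cells, had 85.0% of its UMIs in Cd209a-bearing cells in 14 cells with at least 10 each, 10 of them in library 2.

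Among receptors for chemokines, Ccr1 had 0 UMIs in Xcr1/Clec9a-bearing cells and was at 72.7 CPM (55.8 to 93.2) in Cd209a-bearing cells. Cxcr3, the receptor of Cxcl9, had 12 UMIs in 10 Xcr1/Clec9a-bearing cells and 1 in Cd209a-bearing cells. For cell uptake, the dead-cell receptors Axl and Lrp1 were at 11.7 and 0 against 62.2 and 66.9 CPM, while Havcr2 (Tim-3) was at 102 (66.4 to 149) against 19.9 (11.6 to 31.9). Of 12 immediate early genes compared, 6 were at least 2-fold lower in Xcr1/Clec9a-bearing cells and none higher, against a background of 12.3% and 4.28%. Without the cells with plasmacytoid genes 8 were lower. Jun was at 371 against 1014 CPM and Fos at 707 against 848. Of 4 interferon-stimulated genes compared only Isg15 passed 2-fold, at 66.4 against 146. Without the cells with plasmacytoid genes 1 of these 4 was at least 2-fold higher in Xcr1/Clec9a-bearing cells and 1 lower.

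Cycling transcripts were present at like shares. Mki67 or Top2a was seen in 4 of 36 Xcr1/Clec9a-bearing cells, 11.1% (3.11 to 26.1), and in 18 of 152 Cd209a-bearing cells, 11.8% (7.17 to 18.1). Those cells were deeper, at medians of 10832.5 and 8074 UMIs. Of 7 cell cycle genes compared, only Pclaf, a replication factor, passed 2-fold, at 148 against 55.1 CPM. Its log2 ratio was -2.30 in library 1 and 1.15 in library 2, so it had no common direction.

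Mincle, encoded by Clec4e, is the lectin that the study was about. It senses products of dead cells and signals through the adaptor Fcer1g, the kinase Syk and Card9 with Malt1. Clec4e (chr6:123281789-123289870, minus strand, GRCm38) had 0 UMIs in Xcr1/Clec9a-bearing cells, at a floor of 11.7 CPM, and 9 UMIs in 6 of 152 Cd209a-bearing cells, or 10.6 CPM (4.83 to 20). In libraries 1 to 4 those were 0, 4, 4 and 1 UMIs. Macrophages held 51.5 (45.0 to 58.7) CPM, in 91 of 722 cells, and mature dendritic cells held 1 UMI. A difference between the subsets was not detectable at this depth, since both counts lie at or near the floor. Cd209a-bearing cells held Clec4e in 3.95%, tubule barcodes in 0.865%, and thinned to 1000 UMIs in 0% (0 to 2.43) and 0.100%.

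Part of the signaling chain was lower in Xcr1/Clec9a-bearing cells. Fcer1g was at 1794 (1705 to 1886) CPM in Cd209a-bearing cells and 145 (102 to 199) in Xcr1/Clec9a-bearing cells. Malt1 was at 269 (235 to 306) against 27.4 (11 to 56.4) and Syk at 71.6 (54.7 to 91.9) against 23.4 (8.6 to 51). Of 6 genes of this pathway compared, these 3 were at least 2-fold lower in Xcr1/Clec9a-bearing cells and none was higher, against 12.3% and 4.28% of all compared genes. Card9 had 2 and 11 UMIs. The neighbouring lectins Clec4d and Clec4n had 0 UMIs in Xcr1/Clec9a-bearing cells against 6 and 47, and Clec4n was at 55.1 CPM in Cd209a-bearing cells and 152 in macrophages. Tlr2, which senses bacterial lipoproteins, had 0 UMIs against 62.2 CPM. It and Tlr3 thus lay on opposite sides.

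The Cd209a-bearing cells were not uniform. Mgl2 was seen in 79 of 152 (52.0%, 43.7 to 60.1) and Plac8, a small cysteine-rich protein, in 53 (34.9%, 27.3 to 43.0), with both in 8 and neither in 28. Plac8 was thus seen in 8 of 79 cells with Mgl2 (10.1%, 4.47 to 19.0) and in 45 of 73 without it (61.6%, 49.5 to 72.8). This split was chosen after these values were seen and carries no test. Tubule barcodes held Plac8 in 15.4% and Mgl2 in 0.109%. Thinned to 1000 UMIs, Plac8 was seen in 20.7% of Cd209a-bearing cells and 3.00% of tubule barcodes. The part of tubule RNA in the Plac8 class was not tested. In libraries 1 to 4 Mgl2 was seen in 34 of 50, 30 of 50, 10 of 32 and 4 of 17 cells and Plac8 in 9, 13, 20 and 10, with both in 2, 2, 3 and 1. Cells with both were few in each library, and libraries 3 and 4 held more cells with Plac8 than with Mgl2. Xcr1/Clec9a-bearing cells held Plac8 in 27 of 36, at 524 CPM (439 to 620), and no Mgl2.

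The 71 cells with Mgl2 and without Plac8 were set beside the 45 with Plac8 and without Mgl2. Of 1631 genes compared, 122 or 7.48% were at least 2-fold higher in the former and 171 or 10.5% lower. The classes came from different libraries, with 60 of the 71 and 18 of the 45 in libraries 1 and 2, so class and library are mixed in the pooled values. Within library 1 (32 and 7 cells) and library 2 (28 and 11 cells), 113 of the 122 higher and 122 of the 171 lower genes kept their direction in both. Those cells were also part of the pooled values that picked the genes, so this was no independent check. The classes were drawn from all Cd209a-bearing cells, and the library 1 cell with plasmacytoid genes was not left out first. Ccl17 was at 1021 CPM in 31 of 71 cells and had 0 UMIs in the 45. Ear2, an eosinophil-type ribonuclease, was at 268 in 35 of 71 cells and Ccl22, which shares the receptor of Ccl17, at 141 in 12 of 71, both with 0 UMIs in the 45. H2-DMb2 was at 371 against 46.3 CPM, Ccrl2, a chemerin-binding receptor, at 235 against 16.8, and the mannose receptor Mrc1 at 134 against 12.6. The metallothionein Mt1 was at 1359 against 274. Within each of libraries 1 and 2 these 7 genes kept the direction, and Ccl17 was at 999 and 1161 CPM in the Mgl2-bearing cells with 0 UMIs in the others. In library 3 (7 and 17 cells) Mt1 was the other way, at 365 against 427, and Ccl22 had 0 UMIs in both.

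On the other side, Cd7, a surface protein best known from lymphocytes, was at 253 CPM in 16 of 45 Plac8-bearing cells and 2.35 in 1 of 71 Mgl2-bearing cells. Ifitm1 was at 484 against 120 and Ifi203 at 231 against 54.0. Apoe was at 547 against 21.1. Within libraries 1 and 2 Cd7 was at 527 and 248 against 0 UMIs and 5.01 CPM, and Apoe was higher in the Plac8-bearing cells of both. Few cells held that Apoe, with 7 UMIs in 3 of 7 Plac8-bearing cells of library 1 and 32 in 3 of 11 of library 2. In library 3 it had 82 UMIs in 5 of 17. Apoe was also seen in 37.6% of tubule barcodes, and in 13.1% thinned to 1000 UMIs. Ifitm1 had no common direction, with 0 UMIs in the 7 Plac8-bearing cells of library 1 against 127 CPM, and 920 against 130 in library 2. In library 3 Cd7 had 1 UMI in 17 cells. The classes differed in depth, at medians of 5400 and 4029 UMIs for Mgl2-bearing and Plac8-bearing cells, and in Cd209a, at medians of 7 and 3 UMIs. Thinned to 1000 UMIs, Ccl17 was seen in 25.4% and 0%, Ear2 in 28.2% and 0%, H2-DMb2 in 28.2% and 8.89%, and Cd7 in 0% and 17.8%. A count of 0 of 45 allows a share of up to 7.87%. Proximal tubule genes were also higher in the Plac8-bearing cells, such as Kap at 12260 against 2115 CPM. Tubule genes made a median of 0.415% of UMIs in these cells and 0.110% in the Mgl2-bearing ones, and their part in the other values was not tested.

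**Figure D3:**
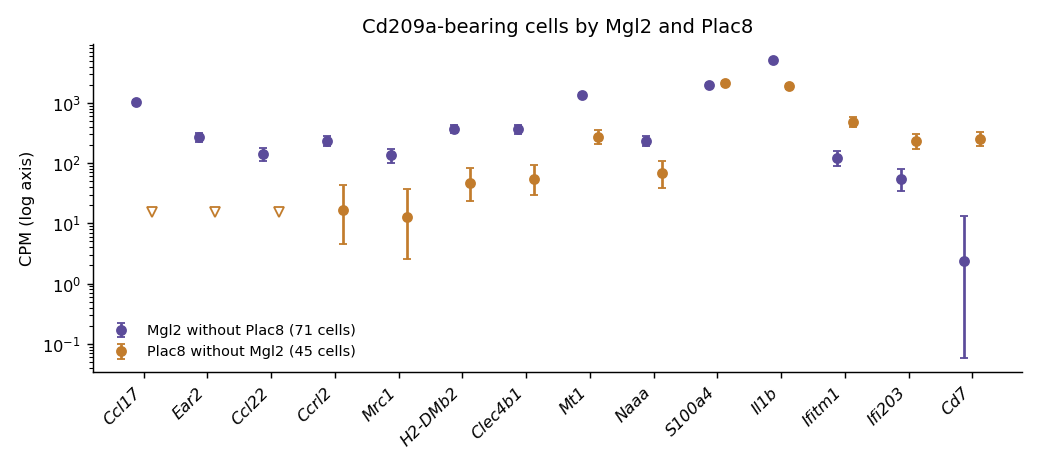
CPM (log axis) of 14 genes in Cd209a-bearing cells with Mgl2 and without Plac8 (purple, 71 cells) and with Plac8 and without Mgl2 (orange, 45 cells), with 95% Poisson intervals. Open triangles are the upper limits of counts of 0. Ccl17, Ear2 and Ccl22 have 0 UMIs in the Plac8-bearing cells, S100a4 is close in both, and Cd7 lies at 253 against 2.35.

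The same genes varied over the libraries within all Cd209a-bearing cells. In libraries 1 to 4, which held 50, 50, 32 and 17 of them, Mgl2 was at 1035, 1154, 378 and 525 CPM and Plac8 at 218, 233, 656 and 781. Libraries 1 and 2 were high in Mgl2 and low in Plac8, and libraries 3 and 4 the reverse. Ccl17 was at 648, 942, 64.1 and 186, and Il1b at 4508, 4487, 2038 and 1469. Cd74 was at 35866, 23779, 16514 and 19698, highest in library 1, and H2-Ab1 at 11358, 10723, 7569 and 6655. Jun ran the other way, at 508, 908, 1682 and 1830. S100a4 was at 1543, 2566, 2217 and 2145, so not all genes of the subset followed the pattern.

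**Figure D4:**
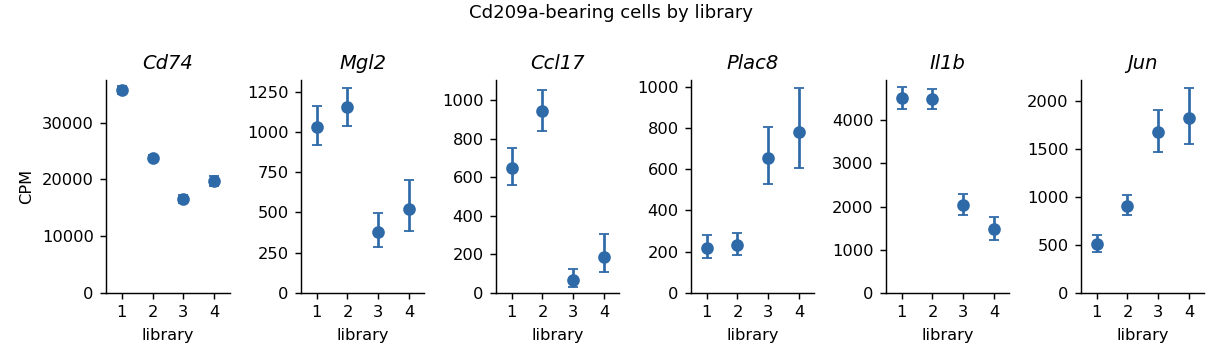
CPM (axes from 0) of Cd74, Mgl2, Ccl17, Plac8, Il1b and Jun in the Cd209a-bearing cells of libraries 1 to 4, with 95% Poisson intervals. Library 5 held 3 such cells and is left out. Mgl2, Ccl17 and Il1b are higher in libraries 1 and 2, and Plac8 and Jun in libraries 3 and 4.

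Cxcl10, an interferon-induced attractant of T cells, and Isg15, an interferon-stimulated ubiquitin-like protein, lay on opposite sides. Cxcl10 was at 93.1, 12.3, 506 and 175 CPM in libraries 1 to 4, though 53% of its UMIs came from 1 cell, and Isg15 at 286, 95.1, 49.9 and 58.3. Tubule genes made a median of 0.108%, 0.111%, 0.661% and 0.415% of UMIs in these cells. That share was highest in library 3, whose passing barcodes were also the shallowest, and its part in the levels was not tested. The libraries are single samples with no replicate, so these values compare libraries and not conditions. In Xcr1/Clec9a-bearing cells of libraries 1 and 2, Irf8 was at 627 and 977, Ppt1 at 845 and 988, Wdfy4 at 314 and 462, and Il1b at 950 and 999.

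Against the 48 mature dendritic cells, which hold both Ccr7 and Fscn1, the members were lower in every listed gene of mature dendritic cells and higher in more than the background share of immediate early genes. Of 3261 genes compared, 604 or 18.5% were at least 2-fold higher in the members and 320 or 9.81% lower, around a median log2 ratio of 0.21. Of 12 immediate early genes 7 were higher and none lower. Lyz2, the myeloid lysozyme, was at 1069 CPM against 21.5, Naaa at 300 against 3.58 and Egr1, an immediate early factor, at 226 against 3.58. Ccr2 was at 288 against 0 UMIs, a log2 ratio of at least 4.74. All 10 listed genes of mature dendritic cells were at least 2-fold lower, with a median log2 ratio of -4.42. Ccr7 and Fscn1 are on that list and were used by the rule. Beyond it, the T cell attractant Ccl5 was at 60.2 against 6728, the fatty acid carrier Fabp5 at 49.2 against 2255, and Nudt17 and H2-M2 had 0 UMIs against 276 and 265 CPM.

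Class II and class I genes went different ways in that comparison. Of 14 class II genes, 5 were at least 2-fold higher in the members and 1 lower. Of 9 class I genes, 5 were lower and none higher, against backgrounds of 18.5% higher and 9.81% lower. Il12b, seen in 2 members, was at 516 CPM in mature cells, and Ccl22 at 803 against 84.0 in the members.

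Against the 722 C1q-rich macrophages, 279 of 8189 genes or 3.41% were at least 2-fold higher in the members and 1180 or 14.4% lower, around a median log2 ratio of -0.20. The macrophages held 4367855 UMIs against 1178631, so here the minimum favoured genes lower in the members. Higher genes included receptors shared with natural killer cells. Klrd1, which encodes CD94, was at 251 CPM against 0.916, Klrk1, which encodes NKG2D, at 79.8 against 2.29, and Cd7 at 63.6 against 0.229. Of the T and natural killer cell list the Xcr1/Clec9a-bearing cells had 0 UMIs of any of 7 genes and the Cd209a-bearing cells 3 UMIs, no more than 1 in a cell. Klrd1 was seen in 97 of 152 Cd209a-bearing cells and in 6 of 36 others, at 330 (292 to 371) and 27.4 (11 to 56.4) CPM, and in 0.166% of tubule barcodes. It was also seen in 16 of 48 mature dendritic cells. Its level in the Cd209a-bearing cells of libraries 1 to 4 was 394, 190, 470 and 501.

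Other genes higher than in macrophages were the gut-homing integrin subunit Itgb7 at 154 against 5.04 CPM, the receptor P2ry10 at 143 against 1.60, Siglecg at 55.1 against 0.687, and the class II accessories H2-Oa at 168 against 6.64 and H2-DMb2 at 248 against 9.84. Of the macrophage list, 8 of 9 genes compared were at least 2-fold lower, with a median log2 ratio of -2.62. Ms4a7 was at 1.70 against 580, Trem2, a lipid-sensing receptor, at 1.70 against 255, and Apoe, a lipid carrier, at 156 against 13369. C1q was limited by the rule. Summed macrophage markers were at 649 and 720 CPM in Xcr1/Clec9a-bearing and Cd209a-bearing cells against 15830 in macrophages.

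**Figure D5:**
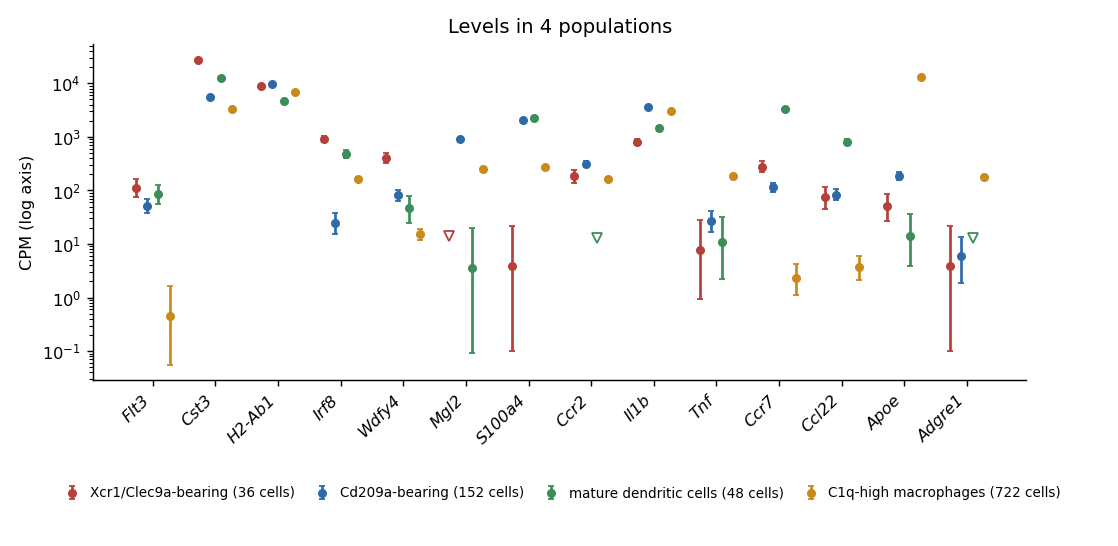
CPM (log axis) of 14 genes in Xcr1/Clec9a-bearing cells (red), Cd209a-bearing cells (blue), mature dendritic cells (green) and C1q-rich macrophages (orange), with 95% Poisson intervals. Open triangles are the upper limits of counts of 0. Flt3 lies between 51.6 and 113 in the 3 dendritic cell populations and at 0.458 in macrophages, and Apoe is highest in macrophages.

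Proximal tubule transcripts were the most abundant of the other cell types' markers in the members. Tubule genes summed to 6737 CPM in Xcr1/Clec9a-bearing and 11813 in Cd209a-bearing cells, near the 11380 in macrophages, and ran from 6190 to 19302 in the Cd209a-bearing cells of libraries 1 to 4. Of 11 tubule genes compared between the subsets 2 were at least 2-fold lower in Xcr1/Clec9a-bearing cells, beside 12.3% of all compared genes. Without the cells with plasmacytoid genes, of which the Xcr1/Clec9a-bearing one had 3.23% of its UMIs on tubule genes, the sums were 4631 and 11862 CPM. Then 10 of the 11 tubule genes were at least 2-fold lower, beside 432 of all 2526 compared genes. Slc27a2, for one, went from 227 to 55.0 CPM in Xcr1/Clec9a-bearing cells, against 299 and 301 in Cd209a-bearing cells. The part of this tubule RNA in the other differences between the subsets was not tested. In all, 20 of 198 members had more than 2% of UMIs on these genes and 17 held at least 3 UMIs of T, natural killer, B cell or neutrophil markers. Neutrophil markers summed to 3.91 and 35.2, and fibroblast markers to 0 and 3.52 CPM. Monocyte markers summed to 586 and 440, above the 370 in macrophages, and 524 and 348 of this was Plac8, with Chil3 and Vcan at 0 UMIs in both subsets and Ly6c2 at 13 and 19 UMIs. B and plasma cell markers summed to 156 and 91.5 CPM against 121 in macrophages, mostly of Ighm with 37 and 74 UMIs, and Ighd and Jchain had 0. Endothelial markers were concentrated in an Xcr1/Clec9a-bearing cell with 20 UMIs and a Cd209a-bearing cell with 17. Without those 2 cells, 110 genes were higher and 325 lower.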

How the data were processed

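Dissociated kidneys were run on the 10x Chromium 3′ v3.1 chemistry, and the authors aligned reads to mm10 and counted UMIs with Cell Ranger 6.0 (6.0.1 in the file header). The values used are the raw UMI counts the authors deposited, for 32285 genes and 10474594 barcodes before any cell was called, merged over 5 libraries of 82426945 to 139382799 UMIs. Barcodes with at least 500 UMIs, at least 200 genes and at most 25% of UMIs on the 13 mitochondrial genes were kept. A knee in depth was set at 10% of the 99th percentile of each library's 3000 deepest barcodes, and 157 of the 198 members lay above it. No doublet caller was run, and doublets are described through marker genes of other cells.

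UMIs were summed over the cells of a subset and given per 1000000 UMIs (CPM). Levels carry exact Poisson intervals, log2 ratios exact conditional binomial intervals and shares Clopper-Pearson intervals, all at 95% and for counting error only. The subsets held 255911 and 852355 UMIs, which set floors of 3 UMIs at 11.7 and 3.52 CPM. A gene was compared at 50 UMIs or more in both groups together and counted as higher or lower at 2-fold, and a count of 0 was set to 3 UMIs to give a bound. The groups differed in total UMIs, so a gene found mainly in the larger group reached this minimum at a lower level. There was 1 pooled sample, so no p-value was computed. Macrophages had at least 10 UMIs of C1q and 5 of H2-Aa with none of the receptors or Cd79a. Mature dendritic cells had Ccr7 and Fscn1. Tubule barcodes had at least 5 UMIs of Slc34a1 and none of H2-Aa. Genes were named if they were in the rule, on a list (Clec7a and Mx1 were not analysed here) or among the 15 largest ratios in a comparison. A same direction in each library with at least 20 cells of each subset was also asked for, and no library had them. Genes of the Mgl2 and Plac8 classes, and genes with a ratio below the first 15, were chosen after their values were seen. The members and lists were chosen with earlier results of these data known. The scripts recovered known ratios in simulated counts. Those counts were drawn for the pooled subsets without variation between cells, so they do not cover transcripts that sat in few cells.

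Alternatives were other depth, mitochondrial, H2-Aa, receptor and C1q limits, other minimum counts, centring, thinning to 1000 UMIs and leaving out libraries or cells. Promoter stretches of up to 250 bases came from RefSeq (GRCm38.p6). Python 3.11.15, numpy 2.4.6, scipy 1.17.1, pandas 2.3.3 and matplotlib 3.10.9 were used.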

Additional observations from a re-analysis of the deposited data

How the results depend on the processing

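Neither the cDC1 nor the cDC2 median changed sign under the alternatives tried. The counts cannot change sign and are compared by size. Every setting for the number of members was stricter than the rule or left cells out, so that number could only fall. The number of members stayed within 1.5 times of 198 in 15 of 17 settings, and was 126 without library 1 and 131 without library 2, in a range of 126 to 194 over the libraries left out. The number of genes at least 2-fold higher in Xcr1/Clec9a-bearing cells (111) ranged from 61 without library 2 to 107 with other libraries left out, and was 15 after thinning to 1000 UMIs, 336 and 47 with a minimum of 20 or 100 UMIs, and 36 and 43 within libraries 1 and 2 alone. The number higher in Cd209a-bearing cells (318) was 56, 790, 160, 125 and 144 in those 5 settings and ran from 247 to 308 over the libraries left out. Fewer genes reach the minimum in the thinned and single-library settings. The share of all called genes that were higher in Xcr1/Clec9a-bearing cells was 25.9%, and 33.6% after centring on the median gene. The unequal UMI totals of the subsets also enter that share.

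The cDC1 median was 1.27 after thinning, where 1 gene of the list remained among 435, and 2.41 to 3.35 over the libraries left out. The cDC2 median was -2.91 to -2.26 and the share of Xcr1/Clec9a-bearing cells 15.7% to 22.1% over the same settings. For Clec4e, with 0 UMIs in 1 subset, only the upper limit of the log2 ratio exists, at 0.75 and from 0.64 with called barcodes to 2.41 within library 2. The settings within 1 library, without cells of high Ccr7, plasmacytoid or endothelial counts and without shared barcode sequences were chosen after seeing the data. No comparison of conditions was possible because no label ties the libraries to samples. The subsets shared libraries, so pairing them by library needed no such label, but no paired test was run. The pooled ratios did not pair the subsets by library. The median depth of 4771.5 to 6333 UMIs per cell limits statements on single cells, and 36 cells limit those on rare transcripts.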
